A study of Mus musculus with 20 samples.

Results

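Neurotrophins and the GDNF family of ligands keep sensory neurons alive and tune their sensitivity, and a neuron responds to them only through the receptors it makes. The 9 receptor genes described here were chosen by name, as the neurotrophin receptors Ntrk2, Ntrk3, Ngfr and Sort1 and the GDNF-family receptors Ret, Gfra1, Gfra2, Gfra3 and Gfra4, out of 37620 genes listed. The rule names genes by family and holds no threshold on a measured value, though earlier results of these data were known when it was written. RNA was sequenced from Trpv1 neurons sorted from dorsal root ganglia (DRG) of mice of 6 to 8 weeks, homozygous for the Trpv1tm2Bbm reporter allele, which makes cells expressing Trpv1 produce nuclear β-galactosidase. Lumbar ganglia were those of L4-5 and sacral ganglia those of L6-S1, taken from 5 male and 5 female donors, so that the 4 groups (male lumbar, male sacral, female lumbar, female sacral) held 5 libraries each and the 20 libraries formed 10 pairs. All groups carried the same allele, no treatment is listed, and each donor label holds 2 animal numbers, so a donor may be a pool. The sort kept the brightest cells for a galactosidase product, which enriches Trpv1 neurons, with a stain for dead cells, and no marker of another cell type is stated as a gate.

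TrkB (Ntrk2) and TrkC (Ntrk3) are receptor tyrosine kinases for BDNF and neurotrophin-3. The p75 receptor (Ngfr) binds all neurotrophins and also their precursors, for which sortilin (Sort1) is its partner. Ret is the kinase shared by the GDNF family, and it is engaged through a GFRα subunit bound to the ligand: GFRα1 for GDNF, GFRα2 for neurturin, GFRα3 for artemin and GFRα4 for persephin. In DRG, Ret and GFRα2 mark many nonpeptidergic neurons and GFRα3 marks peptidergic nociceptors, whereas TrkB and TrkC are best known from mechanoreceptors and proprioceptors. TrkB also exists as a truncated form without the kinase, which glia make in quantity.

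Promoter windows from RefSeq (build GRCm38.p6, 250 bases before to 50 after the start) were at hand for 4 of the 9 genes. Gfra4, which was also higher in sacral libraries, had 2 windows that are not printed. The windows of Ngfr and Gfra1, both higher in sacral libraries, and of Ntrk2, higher in lumbar libraries, are printed. They lie at chr11:95587649-95587948 on the minus strand for Ngfr, at chr19:58455349-58455648 on the minus strand for Gfra1 and at chr13:58806319-58806618 on the plus strand for Ntrk2. Each is given 5′ to 3′ on the strand of its gene, and capitals mark the GC box letters GGGCGG on either strand, the core bound by SP1-like factors.
Ngfr: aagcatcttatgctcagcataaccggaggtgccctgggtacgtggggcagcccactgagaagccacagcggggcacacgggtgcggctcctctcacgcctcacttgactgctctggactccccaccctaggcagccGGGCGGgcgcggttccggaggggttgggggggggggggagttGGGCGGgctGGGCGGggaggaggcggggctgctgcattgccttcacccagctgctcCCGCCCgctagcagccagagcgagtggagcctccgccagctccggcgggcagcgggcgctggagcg
Gfra1: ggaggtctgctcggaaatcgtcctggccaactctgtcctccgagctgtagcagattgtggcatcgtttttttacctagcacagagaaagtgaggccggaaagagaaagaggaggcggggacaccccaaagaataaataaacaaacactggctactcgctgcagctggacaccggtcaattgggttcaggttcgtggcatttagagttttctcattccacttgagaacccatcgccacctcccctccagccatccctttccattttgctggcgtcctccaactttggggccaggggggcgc
Ntrk2: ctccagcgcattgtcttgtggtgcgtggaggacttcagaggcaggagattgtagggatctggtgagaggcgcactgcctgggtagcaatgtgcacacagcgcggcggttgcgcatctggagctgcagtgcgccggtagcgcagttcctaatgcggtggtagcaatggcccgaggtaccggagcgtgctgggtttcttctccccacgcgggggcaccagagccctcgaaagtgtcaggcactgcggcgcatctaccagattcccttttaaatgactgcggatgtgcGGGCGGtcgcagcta
The Ngfr window held 4 GC box matches, the Ntrk2 window held 1 and the Gfra1 window held 0, while 35.7% of the 32851 promoter windows in the table held at least 1. GC content was 71.7% for Ngfr, 61.3% for Ntrk2 and 54.0% for Gfra1, against a median of 52.7%. Ngfr and Ntrk2, which differed in opposite directions between the levels, had 23 CpG dinucleotides each. The median window had 7. The TATA box letters TATAAA, the E-box CACGTG and the cyclic AMP response element TGACGTCA, searched on both strands, did not occur in the windows of these 3 genes or in the 2 windows of Gfra4. Among all windows, 13.6%, 7.15% and 1.79% held them. The 2 windows of Gfra4 held 0 GC box matches each, with a GC content of 55.7% and 52.7% and with 2 and 6 CpG dinucleotides.

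All 9 genes had a value in each of the 20 libraries and passed the filter on low values, so none was tested by virtue of a single group. Levels are in log2 RPKM (reads for each kilobase of gene, scaled to the size of the library, on a log2 scale) and can be set side by side between genes. Between 43807646 and 66212168 reads per library were counted on genes. The fewest reads behind a value were 208, for Gfra4, and the most were 44905, for Ngfr.

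The markers of the sorted cells moved with spinal level, and these values stand beside every level difference that follows. Counts of markers higher at a level are of those that passed the limma fit at an adjusted p of at most 0.05. Of the 16304 genes tested, 30.3% passed as higher in sacral and 15.3% as higher in lumbar libraries. The 14 matched markers of satellite glia and Schwann cells averaged 5.31 ± 0.39 log2 RPKM in lumbar and 4.35 ± 0.45 in sacral libraries (SD over 10 libraries each), and 13 of 14 were higher in lumbar libraries. Their summed level ran from 1590 to 3270 RPKM in lumbar and from 1050 to 1710 RPKM in sacral libraries, it was higher at the lumbar level in 10 of 10 donors, and none of these markers was at 0. The 6 neuron markers averaged 6.19 ± 0.30 log2 RPKM in lumbar and 6.75 ± 0.16 in sacral libraries, and 6 of 6 were higher in sacral libraries. Of 5 Trpv1 and peptidergic markers, 3 were higher in sacral libraries, among them Trpv1 itself, the gene the sort was built on, at 3.74 ± 0.41 in lumbar and 4.70 ± 0.35 in sacral libraries. Of 7 nonpeptidergic markers, 2 (Mrgpra3 and P2rx3) were higher in sacral libraries, and so were 3 of 3 markers of C low-threshold mechanoreceptors, whose summed level was 21.1 to 73.0 RPKM in lumbar and 56.7 to 128 RPKM in sacral libraries. The nonpeptidergic markers averaged 3.77 ± 0.55 log2 RPKM in lumbar and 4.10 ± 0.42 in sacral libraries. Among the other cells, 2 of 4 tested macrophage markers, 6 of 7 endothelial and mural markers and 3 of 5 fibroblast markers were higher in lumbar libraries, and 1 endothelial and mural marker (Rgs5) was higher in sacral libraries. Within each level, 36 relations of a receptor to the glial or the neuron marker mean were computed, and 8 of 18 with the glial and 6 of 18 with the neuron marker mean passed at an adjusted p of at most 0.05. Each of these had an absolute r of at least 0.72, which 5 of the 9 receptors reached with the glial and 4 with the neuron markers in lumbar libraries and 3 and 2 in sacral libraries. Of the 12776 genes with a value in every library and a mean log2 RPKM above 0, the marker genes left out, 21.1% and 21.5% reached it in lumbar and 12.9% and 14.3% in sacral libraries. In bulk RNA, fewer cells of a type and less RNA per cell cannot be told apart.

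The first comparison asked which receptors differ between lumbar and sacral libraries of the sorted cells. Of the 9 genes, 8 differed between the levels in the limma fit at an adjusted p of at most 0.05. Ngfr, Ret, Gfra1, Gfra2, Gfra3 and Gfra4 were higher in sacral libraries, Ntrk2 and Sort1 were higher in lumbar libraries, and Ntrk3 did not pass. Those directions held with TMM scaling, quantile normalization and scaling to total reads, but that of Gfra2 turned on centring to the neuron markers and that of Gfra3 with the glial covariate. These differences were common in this table: 45.6% of the 16304 genes tested passed the same test, 30.3% higher in sacral and 15.3% higher in lumbar libraries. Lumbar and sacral ranges overlapped for each of the 9 genes, and 1.7% of all genes tested had ranges apart. The 10 donors went in 1 direction for 6 of the 9 genes (Ngfr, Ret, Gfra3, Gfra4, Ntrk2 and Sort1), as they did for 21.2% of the 15318 tested genes with a value in every library. The split of calls over all genes also moved with scaling, from 4947 sacral and 2489 lumbar as deposited to 3586 and 3429 with TMM scaling and 3442 and 3047 with quantile normalization. The median difference of all genes (lumbar minus sacral, log2) was -0.11 as deposited, 0.00 with TMM, -0.03 with quantile normalization, -0.44 when libraries were scaled to total reads and 0.46 when they were centred on the neuron markers. Scaling to total reads called 10934 of the 16304 genes, 9634 of them higher in sacral libraries. Centring on the neuron markers called 10935, of which 10486 were higher in lumbar libraries. With the glial marker mean as a covariate, 0 of the 9 genes passed, and over all genes 130 did. The covariate itself differed between the levels, and the median SE over all genes rose from 0.13 to 0.23 in that fit. Lost precision and glial RNA therefore cannot be told apart there.

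**Figure D1:**
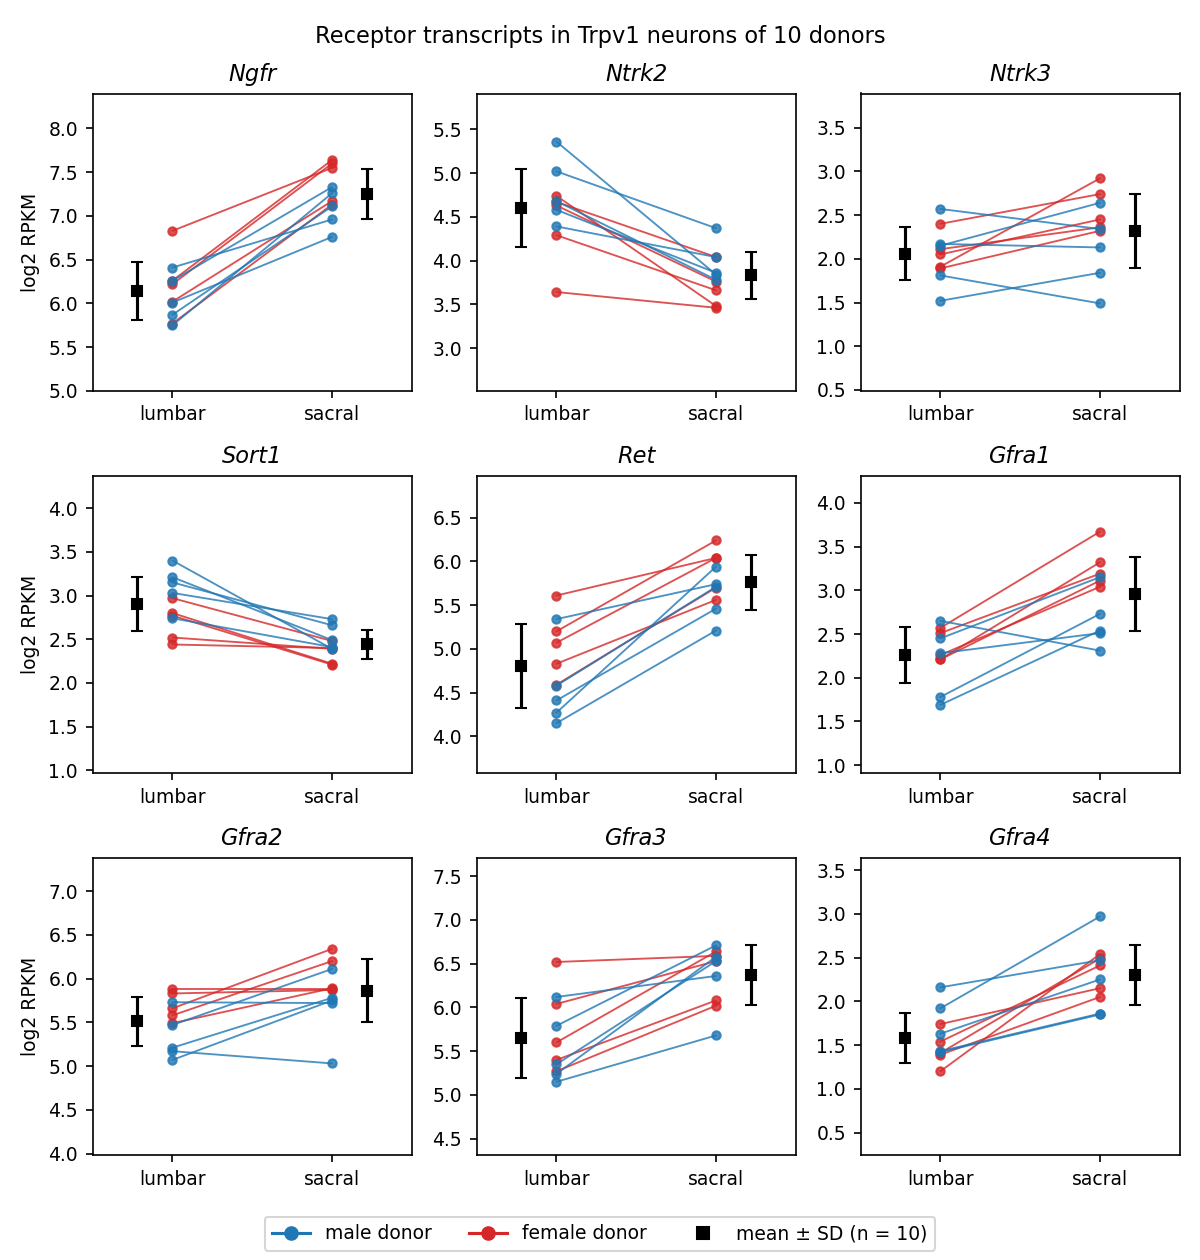
Log2 RPKM of the 9 receptor genes in lumbar and sacral libraries, with lines joining the libraries of a donor, blue for the 5 male and red for the 5 female donors. Black squares are means with SD (n = 10), and each y axis spans the same number of log2 units. Ngfr rises from lumbar to sacral in 10 of 10 donors, Ntrk2 falls in 10 of 10, and the lines of Ntrk3 cross.

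Ngfr, the shared low-affinity neurotrophin receptor p75 (ENSMUSG00000000120, chr11:95430132-95449049 of mm9, minus strand), had the highest level of the 9 genes at both spinal levels. Its log2 RPKM ran from 5.75 over a median of 6.12 to 6.83 in lumbar libraries and from 6.76 over a median of 7.22 to 7.64 in sacral libraries. The ranges met only at their edges, where 1 lumbar library, that of female donor 2, lay above 1 sacral library, that of male donor 2. The mean rose from 72.2 RPKM in lumbar to 155 RPKM in sacral libraries. On the log2 scale the lumbar minus sacral difference was -1.11 (SE 0.11, limma adjusted p = 4.9e-07), which is 2.16-fold, and it was negative in 10 of 10 donors, from -1.52 in male donor 5 to -0.55 in male donor 1. Leaving out each donor in turn kept the difference between -1.17 and -1.05. Centred on the neuron markers it was -0.55 (adjusted p = 1.39e-05), and scaled to total reads it was -1.44 (adjusted p = 1.01e-07). With the glial marker mean as a covariate it was -0.66, with an adjusted p of 0.0856. Ngfr stood above 98.4% of the genes with a mean in lumbar libraries and above 99.3% of those in sacral libraries. Ngfr rose with the neuron marker mean in lumbar libraries (r = 0.72, rho = 0.73, n = 10, permutation p = 0.0168 and 0.0206, adjusted p = 0.0453 for r, and r = 0.73 without the 2 farthest libraries) and in sacral libraries (r = 0.79, rho = 0.81, permutation p = 0.00778 and 0.00691, adjusted p = 0.0239 for r, and r = 0.86 without the 2 farthest). Against the glial marker mean it descended among sacral libraries (Pearson r = -0.74, Spearman rho = -0.66, n = 10, permutation p = 0.0176 and 0.0434, adjusted over 36 relations p = 0.0453 for r, and r = -0.73 without the 2 libraries farthest from the median). Within lumbar libraries r was -0.64 (rho = -0.54, permutation p = 0.0467 and 0.115, adjusted p = 0.08) and -0.77 without the 2 farthest. The part of cell makeup in the Ngfr difference was not tested.

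Ntrk2, the BDNF receptor TrkB (ENSMUSG00000055254, chr13:58907957-59235331, plus strand), went the other way. Its log2 RPKM ran from 3.64 over a median of 4.65 to 5.36 in lumbar libraries and from 3.46 over a median of 3.81 to 4.37 in sacral libraries. Of the lumbar libraries, 8 of 10 lay above the highest sacral library. The lowest lumbar value belonged to female donor 5, whose lumbar library also had the lowest glial marker mean of its level, 4.72, and the highest belonged to male donor 2, whose lumbar library had the highest, 5.92. Mean levels were 25.3 RPKM in lumbar and 14.4 RPKM in sacral libraries. The difference was 0.77 (SE 0.13, limma adjusted p = 7.63e-05), or 1.71-fold, positive in 10 of 10 donors and between 0.18 in female donor 5 and 1.52 in male donor 2. It was 0.44 when scaled to total reads (adjusted p = 0.00189), 1.34 when centred on the neuron markers (adjusted p = 6.82e-06) and 0.12 with the glial covariate (adjusted p = 0.869). Ntrk2 followed the glial marker mean among lumbar libraries (r = 0.83, rho = 0.68, n = 10, permutation p = 0.00161 and 0.0343, adjusted p = 0.00966 for r, and r = 0.63 without the 2 farthest libraries). Among sacral libraries the relation was of like size (r = 0.88, rho = 0.90, permutation p = 0.00028 and 0.00085, adjusted p = 0.00504 for r, and r = 0.79 without the 2 farthest). Against the neuron marker mean r was -0.77 among lumbar libraries (rho = -0.64, permutation p = 0.00571 and 0.0541, adjusted p = 0.0206 for r, and r = -0.89 without the 2 farthest) and -0.70 among sacral libraries (rho = -0.71, permutation p = 0.0236 and 0.0264, adjusted p = 0.0514, and r = -0.89 without the 2 farthest). The annotation gives Ntrk2 5 coding transcripts of 1368 to 2466 coding bases, and the deposited gene value adds them, so full-length and truncated TrkB cannot be told apart here. The part of glial RNA in the Ntrk2 difference was not tested.

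Sort1, which encodes sortilin (ENSMUSG00000068747, chr3:108087009-108164429, plus strand), was the other gene called higher in lumbar libraries. It ran from 2.44 over a median of 2.89 to 3.40 in lumbar libraries and from 2.21 over a median of 2.40 to 2.73 in sacral libraries, or 7.64 and 5.46 RPKM on average. The smallest donor difference, 0.05 in female donor 5, is near 0. The difference was 0.47 (SE 0.09, limma adjusted p = 2.06e-04), 1.38-fold, and positive in 10 of 10 donors. Scaling to total reads brought it to 0.14 (adjusted p = 0.164) and the glial covariate to 0.23 (adjusted p = 0.625), while centring on the neuron markers brought it to 1.03 (adjusted p = 4.09e-06). Like Ntrk2, Sort1 rose with the glial marker mean among lumbar libraries (r = 0.82, rho = 0.83, n = 10, permutation p = 0.0046 and 0.00493, adjusted p = 0.0184 for r, and r = 0.61 without the 2 farthest libraries). Among sacral libraries the relation did not pass (r = 0.50, rho = 0.56, permutation p = 0.144 and 0.0967, adjusted p = 0.185, and r = 0.39 without the 2 farthest). Sort1 shares 329 exonic bases with Gm12523 on the opposite strand. Reads from the overlap cannot be assigned without strand.

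Ntrk3, the neurotrophin-3 receptor TrkC (ENSMUSG00000059146, chr7:85337248-85723294, minus strand), was the only one of the 9 genes that did not pass the level test. Its log2 RPKM ran from 1.52 over a median of 2.08 to 2.57 in lumbar libraries and from 1.49 over a median of 2.35 to 2.92 in sacral libraries, so that 10 of 10 lumbar libraries lay inside the sacral range. The difference was -0.27 (SE 0.13, limma adjusted p = 0.0978), negative in 7 of 10 donors. Among females alone it was -0.48 (adjusted p = 0.0281) and it passed with array quality weights (-0.35, adjusted p = 0.0341) and with scaling to total reads (-0.59, adjusted p = 0.00113), whereas centring on the neuron markers turned it to 0.30 (adjusted p = 0.0292). With the glial covariate it was 0.19 (adjusted p = 0.831), and with TMM scaling and quantile normalization it was -0.15 each (adjusted p = 0.31 and 0.354). Most genes were called with scaling to total reads (9634 of 16304 higher in sacral libraries) and with neuron marker centring (10486 higher in lumbar libraries). TrkC is best known from large myelinated neurons, whose 7 listed markers ranged widely in level. Nefh averaged 5.04 ± 0.41 log2 RPKM in lumbar and 5.01 ± 0.32 in sacral libraries, Etv1 3.56 ± 0.33 and 3.79 ± 0.32 and Spp1 3.08 ± 0.62 and 1.79 ± 0.96. Necab2 averaged 0.74 ± 0.51 and 1.02 ± 0.58 and Calb1 -0.02 ± 0.62 and -0.15 ± 0.49. Pvalb, in the libraries with a value, averaged -0.29 ± 1.37 and -2.36 ± 1.75, and Runx3 -2.29 ± 1.32 and -3.30 ± 1.21. The summed level of the 7 markers was 50.2 to 91.2 RPKM in lumbar and 40.7 to 63.8 RPKM in sacral libraries. Of the 6 tested, 2 (Pvalb and Spp1) were called higher in lumbar libraries and 0 higher in sacral libraries, and their part in the Ntrk3 values was not tested.

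Ret, the kinase that serves all GFRα subunits (ENSMUSG00000030110, chr6:118101766-118147762, minus strand), had the second largest level difference of the 9 as deposited, and a smaller one than Ntrk2 with TMM scaling, quantile normalization or centring on the neuron markers. Its log2 RPKM ran from 4.15 over a median of 4.71 to 5.61 in lumbar libraries and from 5.21 over a median of 5.72 to 6.24 in sacral libraries. Only 2 of 10 lumbar libraries, those of female donor 2 and male donor 1, reached the sacral range. Mean levels were 29.4 and 55.4 RPKM. The difference was -0.96 (SE 0.13, limma adjusted p = 1.25e-05), 1.94-fold, and negative in 10 of 10 donors, from -1.67 in male donor 5 to -0.40 in male donor 1. Ret followed the neuron marker mean closely at both levels, with r = 0.92 in lumbar libraries (rho = 0.90, n = 10, permutation p = 0.00027 and 0.00072, adjusted p = 0.00504 for r, and r = 0.86 without the 2 farthest) and r = 0.88 in sacral libraries (rho = 0.85, permutation p = 0.001 and 0.00279, adjusted p = 0.0072 for r, and r = 0.88 without the 2 farthest). It ran against the glial marker mean, with r = -0.89 in lumbar libraries (rho = -0.85, permutation p = 7e-04 and 0.00262, adjusted p = 0.0063 for r, and r = -0.89 without the 2 farthest) and r = -0.83 in sacral libraries (rho = -0.85, permutation p = 0.00364 and 0.0029, adjusted p = 0.0164 for r, and r = -0.79 without the 2 farthest). Centred on the neuron markers the Ret difference was -0.39 and still passed, and with the glial covariate it was -0.25 (adjusted p = 0.653).

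**Figure D2:**
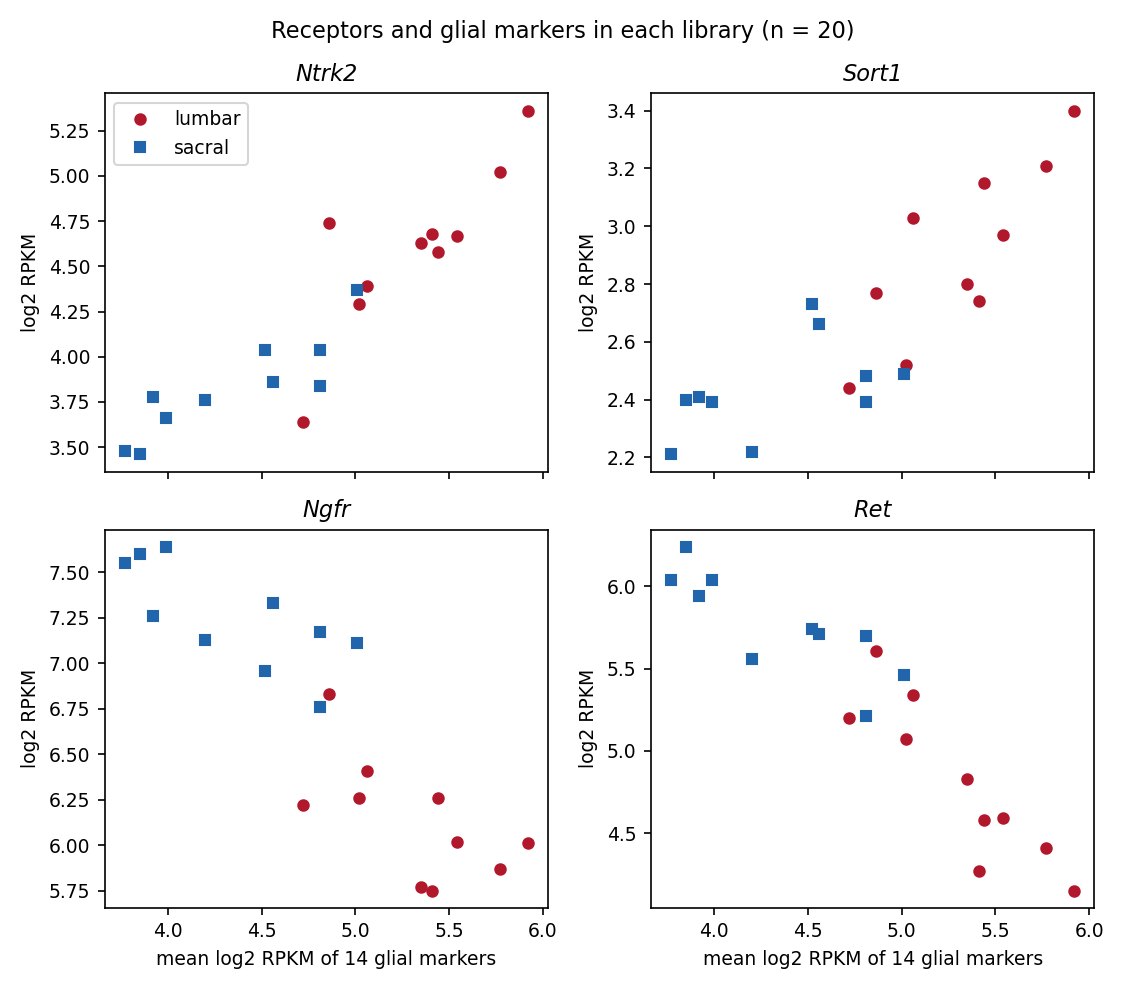
Log2 RPKM of Ntrk2, Sort1, Ngfr and Ret in each of the 20 libraries against the mean log2 RPKM of 14 markers of satellite glia and Schwann cells, red circles lumbar and blue squares sacral. Ntrk2 climbs with the glial markers (r = 0.83 among lumbar and 0.88 among sacral libraries) and Ret descends (r = -0.89 and -0.83). For Ngfr r is -0.64 among lumbar libraries, which did not pass, and -0.74 among sacral libraries. The Ngfr values of the levels overlap only at their edges.

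The GFRα subunits were, like Ret, higher in sacral libraries as deposited, but the sign of Gfra2 turned when libraries were centred on the neuron markers and that of Gfra3 with the glial covariate. Gfra3, the artemin subunit of peptidergic nociceptors (ENSMUSG00000024366, chr18:34849557-34880041, minus strand), was the most abundant of them. It ran from 5.15 over a median of 5.50 to 6.52 in lumbar libraries and from 5.68 over a median of 6.53 to 6.71 in sacral libraries, or 52.6 and 84.7 RPKM on average. The lumbar library of female donor 2 reached 6.52, near the sacral median, and in that donor the levels differed by only -0.07. The difference was -0.72 (SE 0.15, limma adjusted p = 5.22e-04), 1.65-fold, and negative in 10 of 10 donors, but it was -0.16 (adjusted p = 0.149) when centred on the neuron markers and 0.06 (adjusted p = 0.958), of the other sign, with the glial covariate. Among lumbar libraries Gfra3 rose with the neuron marker mean (r = 0.89, rho = 0.96, n = 10, permutation p = 0.00061 and 6e-05, adjusted p = 0.0063 for r, and r = 0.90 without the 2 farthest). Among sacral libraries that relation did not pass (r = 0.59, rho = 0.43, permutation p = 0.071 and 0.217, adjusted p = 0.102, and r = 0.88 without the 2 farthest). Against the glial marker mean r was -0.83 among lumbar libraries (rho = -0.84, permutation p = 0.00309 and 0.00367, adjusted p = 0.0159 for r, and r = -0.84 without the 2 farthest) and -0.57 among sacral libraries (rho = -0.47, permutation p = 0.0841 and 0.179, adjusted p = 0.116, and r = -0.27 without the 2 farthest).

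Gfra2, the neurturin subunit (ENSMUSG00000022103, chr14:71289927-71379645, plus strand), was close to Gfra3 in level. As deposited it had the smallest difference among the 8 genes that passed, but not when scaled to total reads or centred on the neuron markers. It ran from 5.07 over a median of 5.54 to 5.88 in lumbar libraries and from 5.03 over a median of 5.88 to 6.34 in sacral libraries, with 10 of 10 lumbar libraries inside the sacral range. The difference was -0.35 (SE 0.11, limma adjusted p = 0.0112), 1.27-fold, negative in 7 of 10 donors. It did not pass with quantile normalization (-0.13, adjusted p = 0.266) or in males alone (-0.35, adjusted p = 0.129), and centring on the neuron markers turned it to 0.22 (adjusted p = 0.0446). With the glial covariate it was -0.06 (adjusted p = 0.955), and scaled to total reads it was -0.67 (adjusted p = 5.57e-05). Gfra2 descended against the glial marker mean among lumbar libraries (r = -0.79, rho = -0.78, n = 10, permutation p = 0.00796 and 0.0112, adjusted p = 0.0239 for r, and r = -0.80 without the 2 farthest), and among sacral libraries the relation did not pass (r = -0.47, rho = -0.39, permutation p = 0.168 and 0.266, adjusted p = 0.202, and r = -0.57 without the 2 farthest).

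Gfra1, the GDNF subunit (ENSMUSG00000025089, chr19:58310094-58530399, minus strand), averaged 4.90 RPKM in lumbar and 8.07 RPKM in sacral libraries. Its log2 RPKM ran from 1.69 over a median of 2.27 to 2.65 in lumbar libraries and from 2.31 over a median of 3.08 to 3.67 in sacral libraries. The donors other than male donor 1 had more in the sacral library, and in male donor 1 the difference was 0.34. The difference over donors was -0.70 (SE 0.12, limma adjusted p = 1.11e-04), 1.62-fold, and centred on the neuron markers it was -0.13 (adjusted p = 0.273). In males alone it was -0.48 (adjusted p = 0.0807), and with the glial covariate it was -0.45 (adjusted p = 0.465). Gfra1 shares 416 exonic bases with Gm16277 on the opposite strand.

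Gfra4, the persephin subunit (ENSMUSG00000027316, chr2:130865368-130868824, minus strand), averaged 3.06 RPKM in lumbar libraries, the lowest of the 9 genes there, and 5.07 RPKM in sacral libraries, where Ntrk3 was higher by 0.02 ± 0.42 log2 RPKM (SD, n = 10) and in 5 of 10 libraries. It ran from 1.20 over a median of 1.48 to 2.16 in lumbar libraries and from 1.85 over a median of 2.33 to 2.97 in sacral libraries. The lumbar libraries were lower in 10 of 10 donors. The difference was -0.72 (SE 0.12, limma adjusted p = 1.2e-04), 1.65-fold, and -0.15 (adjusted p = 0.236) when centred on the neuron markers. With the glial covariate it was -0.33 (limma adjusted p = 0.633). Against the neuron marker mean r was 0.06 among lumbar libraries (permutation p = 0.876, adjusted p = 0.901) and 0.63 among sacral libraries (permutation p = 0.049, adjusted p = 0.0802). The relation of Gfra4 to the glial marker mean did not pass among lumbar libraries (r = -0.03, rho = 0.22, n = 10, permutation p = 0.933 and 0.54, adjusted p = 0.933, and r = -0.27 without the 2 farthest) or among sacral libraries (r = -0.47, rho = -0.47, permutation p = 0.166 and 0.178, adjusted p = 0.202, and r = -0.56 without the 2 farthest).

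**Figure D3:**
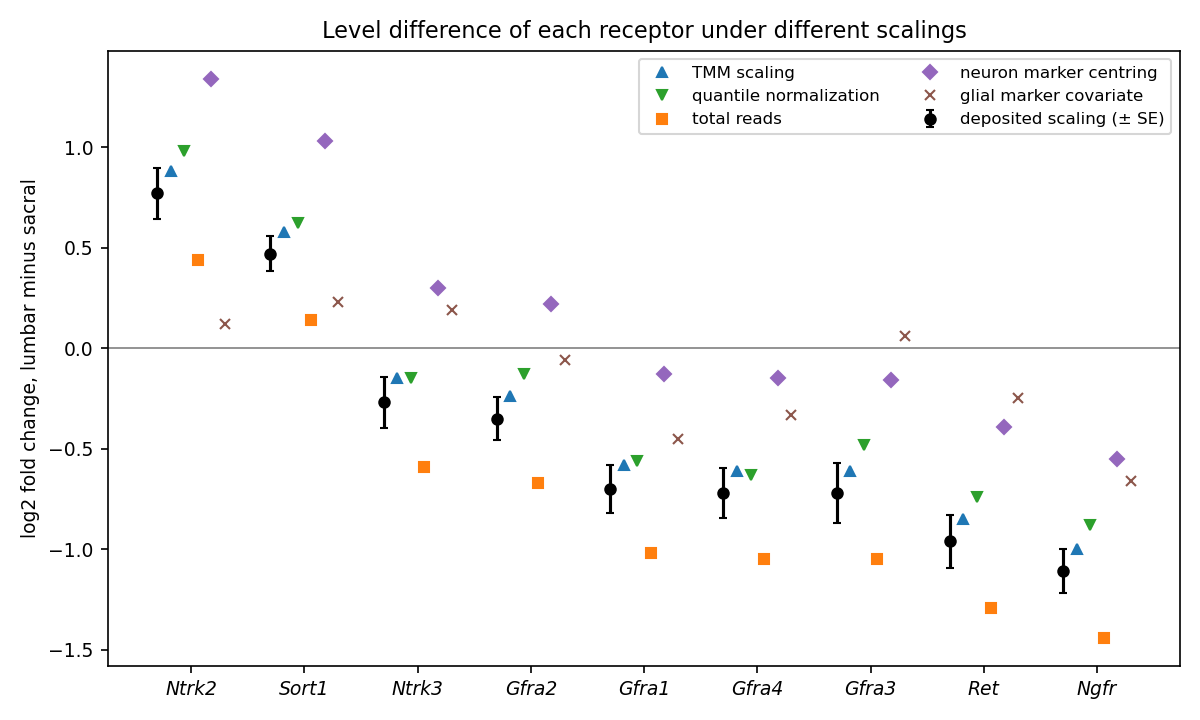
Lumbar minus sacral log2 fold change of the 9 receptor genes as deposited (black, bars are SE) and under 5 other treatments of the same 20 libraries (coloured symbols). Ngfr, Ret, Ntrk2 and Sort1 keep their sign throughout, Gfra1 and Gfra4 shrink to -0.13 and -0.15 when centred on the neuron markers, Ntrk3 and Gfra2 change sign there (0.30 and 0.22), and Ntrk3 and Gfra3 change sign with the glial covariate (0.19 and 0.06).

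The first 5 receptors stood in the same order at both levels, and the gap between Ret and Ntrk2 was wider in sacral libraries. In lumbar libraries the order of mean level was Ngfr, Gfra3, Gfra2, Ret, Ntrk2, Sort1, Gfra1, Ntrk3 and Gfra4, and the differences between Gfra3 and Gfra2, between Ret and Ntrk2 and between Gfra1 and Ntrk3 were within 1 SD over the 10 libraries. Ret and Ntrk2 were apart by only 0.21 ± 0.84 log2 units, with Ret higher in 5 of 10 lumbar libraries. In sacral libraries Ret exceeded Ntrk2 by 1.94 ± 0.53 in 10 of 10 libraries. There Gfra1 stood before Sort1, the only change of order between the levels, and the neighbours Gfra3 and Gfra2, Gfra2 and Ret, Gfra1 and Sort1, Sort1 and Ntrk3, and Ntrk3 and Gfra4 lay within 1 SD of each other.

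Ratios of receptors within a library do not depend on how libraries were scaled to each other, and 8 such ratios were compared between the levels with an exact sign-flip permutation test over the 10 donors (two-sided, smallest possible p 0.00195). Of these, 5 reached that smallest p, with an adjusted p over the 8 of 0.00313 each. For Ngfr to Ntrk2 and Ngfr to Sort1 this p was fixed by the opposite directions of the genes in 10 of 10 donors given above, and it adds no evidence to them. Among all pairs of the 12795 genes with a value in every library and a mean log2 RPKM above 0, 19.2% of ratios went in 1 direction in the 10 donors. Ngfr exceeded Ntrk2 by 1.54 ± 0.62 log2 units in lumbar and 3.42 ± 0.51 in sacral libraries, a difference of -1.88 ± 0.43 (SD) seen in 10 of 10 donors. Relative to Sort1, Ngfr went from 3.23 ± 0.49 to 4.81 ± 0.37, and relative to Ntrk3 from 4.08 ± 0.31 to 4.93 ± 0.34. The TrkB to TrkC ratio fell from 2.54 ± 0.61 in lumbar to 1.5 ± 0.65 in sacral libraries. Per unit length, Ngfr was thus higher in sacral libraries relative to the gene values of Ntrk2, Ntrk3 and Sort1, which add the isoforms of each gene. A ratio still mixes the cell types of a library, and the part of cell makeup in these and the following ratios was not tested.

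In the GDNF branch, Gfra2 exceeded Ret by 0.70 ± 0.31 in lumbar libraries and by 0.09 ± 0.24 in sacral libraries, a difference of 0.61 ± 0.32 in 10 of 10 donors (exact sign-flip permutation p = 0.00195, adjusted p = 0.00313). Gfra3 over Ret went from 0.84 ± 0.22 to 0.61 ± 0.35, a difference of 0.23 ± 0.27 in 8 of 10 donors (exact permutation p = 0.0293, adjusted p = 0.0335). That call was lost without male donor 4, male donor 5 or female donors 2, 3 or 5, with adjusted p between 0.0586 and 0.067. Gfra2 over Gfra3 differed by 0.38 ± 0.52 in the same direction in 8 of 10 donors (exact permutation p = 0.0215, adjusted p = 0.0286), and without male donor 5 the adjusted p was 0.0573. Without male donor 2, at 1.49 the highest of the 10, the difference was 0.25 (adjusted p = 0.0491). The ratio of Gfra1 to Ret did not pass (0.26 ± 0.41, exact permutation p = 0.082 before and after adjustment), although it passed without female donor 2 (0.32, adjusted p = 0.0446) and on the log2(RPKM + 1) scale (0.33, adjusted p = 0.0246). Of the summed RPKM of the 4 GFRα genes, Gfra2 made up 44.0% ± 5.85 in lumbar and 37.9% ± 7.35 in sacral libraries, Gfra3 48.4% ± 6.30 and 53.7% ± 8.54, Gfra1 4.67% ± 0.924 and 5.16% ± 1.40, and Gfra4 2.97% ± 0.728 and 3.23% ± 0.678. The artemin and neurturin subunits made up most of the GFRα transcript at both levels.

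**Figure D4:**
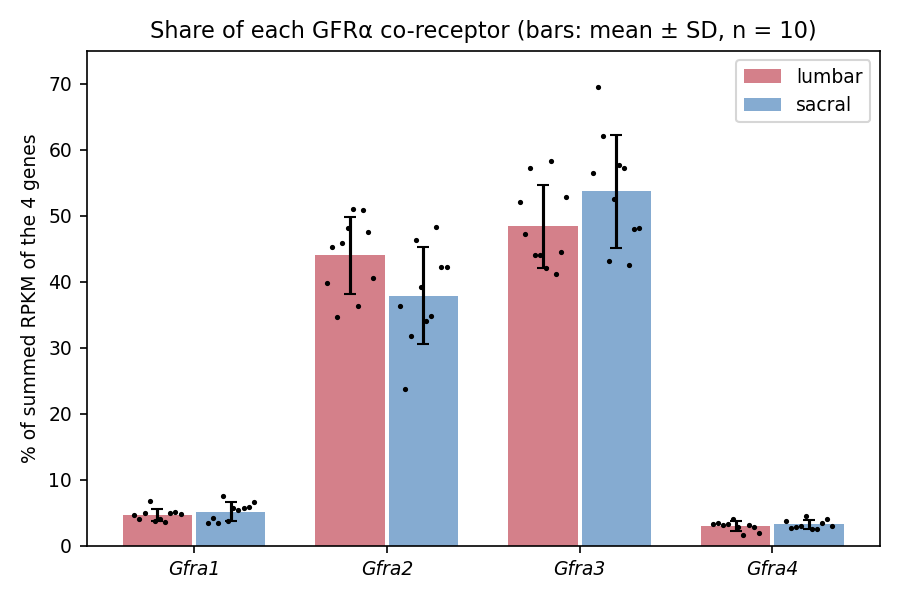
Share of each GFRα subunit in the summed RPKM of the 4 genes, in percent, for 10 lumbar (red) and 10 sacral (blue) libraries. Bars are means, error bars SD and dots libraries. Gfra2 and Gfra3 together fill most of the total at both levels, and the Gfra2 mean is 44.0% in lumbar and 37.9% in sacral libraries.

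The second comparison asked whether the receptors differ between the sexes. None of the 9 genes passed in limma at either level, over both levels, or for the interaction of sex and level, against 0.0427%, 0.0368%, 0.0552% and 0.0% of all genes tested. Voom on reads also called 0 of 9 in each. Before adjustment, p was under 0.05 for 3 genes in lumbar libraries, for 3 in sacral libraries, for 5 over both levels and for 0 in the interaction. Over all genes tested, p was under 0.05 for 11.4%, 8.09%, 14.6% and 4.1% in the same order. Sort1 in lumbar libraries was lower in females by a log2 difference of -0.41 (SE 0.13, limma adjusted p = 0.3302), at 2.70 ± 0.22 in 5 females and 3.11 ± 0.25 in 5 males. Gfra1 in sacral libraries was higher in females by 0.62 (SE 0.19, limma adjusted p = 0.3591), at 3.27 ± 0.25 against 2.65 ± 0.32. Over both levels Sort1 had the lowest adjusted p of the 9 genes, 0.2043 (limma, log2 difference -0.30, SE 0.10), and with array quality weights it passed (-0.38, SE 0.09, limma adjusted p = 0.0392), in a fit that called 2.12% of all genes. The glial marker mean ran from 4.72 to 5.54 in female and from 5.06 to 5.92 in male lumbar libraries. In sacral libraries it ran from 3.77 to 4.81 in females and from 3.92 to 5.01 in males. The part of cell makeup in the sex values was not tested. The level difference of Ntrk3 was -0.48 on average in females and -0.05 in males, a difference between sexes of -0.44 (SE 0.26) that did not pass (limma adjusted p = 0.9996).

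The genes whose deviations from the group means most resembled those of each receptor over the 20 libraries were found among 12795 genes, as a description. Ntrk2 closely resembled Ptprz1 (r = 0.95), a receptor phosphatase, and Ngfr was most like Abhd2 (0.96) and Esyt1 (0.95). Ret was most like Lrrn1 and Copg (0.98 each), Gfra3 most like Maged1 (0.95) and Pld3 (0.94), Gfra2 most like Wipf3 and Casz1 (0.90 each) and Sort1 most like Gria3 (0.91) and Trim56 (0.90). The leading genes for Ntrk3 were Gm17080 and Trpc4ap (0.85 each), for Gfra1 Eef2 (0.82) and Drosha (0.79), and for Gfra4 Snx21 (0.81) and Zfp788 (0.80). Among the receptors themselves, Ngfr went most closely with Ret (0.82) and Gfra3 (0.74), Gfra2 with Gfra4 (0.73) and Ntrk2 with Sort1 (0.64), while Ntrk2 and Gfra3 ran opposite (-0.57). All of these share libraries and their cell makeup.

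Most ligands of these receptors were scarce in the sorted cells. Bdnf and Gdnf were called higher in sacral libraries. Bdnf, the TrkB ligand that nociceptors make, was the best expressed, at a log2 RPKM of 2.49 ± 0.38 in lumbar and 3.48 ± 0.35 in sacral libraries (difference -0.98, SE 0.13, limma adjusted p = 1.09e-05). Ligand and receptor thus differed in opposite directions, Bdnf being higher in sacral and Ntrk2 in lumbar libraries. Gdnf differed by -1.85 (SE 0.55, limma adjusted p = 0.00966) but on at most 224 reads in a library. Ntf3, Ntf5, Nrtn, Artn and Pspn had at most 19 reads in any library.

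Among 9 tested co-receptors and sortilin relatives, 4 were higher in lumbar and 3 higher in sacral libraries, with a median difference of -0.06 against -0.11 over all genes tested, of which 45.6% were called. Sorl1, a sorting receptor of the sortilin family, differed by -1.38 (SE 0.15, limma adjusted p = 1.39e-06). Tnfrsf19, a p75 relative that joins Nogo receptor complexes, differed by 1.29 (SE 0.32, limma adjusted p = 0.00283), and Sorcs3 by -1.21 (SE 0.32, limma adjusted p = 0.00444). Of 18 tested receptor adaptors, 1 was higher in lumbar and 9 higher in sacral libraries (median -0.28), against 15.3% and 30.3% of all genes tested, but with TMM scaling these counts were 4 and 7 and with quantile normalization 3 and 8. Shc3 was the lumbar gene (1.21, SE 0.21, limma adjusted p = 1.38e-04, on at most 189 reads). Kidins220, a scaffold for Trk and p75 receptors, differed by -0.78 (SE 0.12, limma adjusted p = 5.11e-05) and Shc2 by -0.66 (SE 0.10, limma adjusted p = 4.08e-05).

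Of 11 tested feedback and response genes of the ERK pathway, 3 were higher in lumbar and 2 higher in sacral libraries (median 0.08), and 5 and 2 with TMM scaling or quantile normalization. As deposited, called genes were about as common in this list as among all genes tested (45.6%). Over all genes, 7015 of 16304 were called with TMM scaling and 6489 of 16292 with quantile normalization. Whether the list differed from all genes was not tested. Vgf, a secreted peptide precursor induced by neurotrophins, had the largest change of this list, from 1.78 ± 0.50 in lumbar to 3.44 ± 0.63 in sacral libraries (-1.66, SE 0.20, limma adjusted p = 4.47e-06). Spry1 and Dusp6, which are among the genes of this list that restrain the pathway, were higher in lumbar libraries by 0.95 (SE 0.34, limma adjusted p = 0.0293) and 0.58 (SE 0.12, limma adjusted p = 6.01e-04). Spry1 was low, at 0.26 ± 1.01 log2 RPKM in lumbar and -0.69 ± 0.98 in sacral libraries. Other Sprouty genes of the list were not called.

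**Figure D5:**
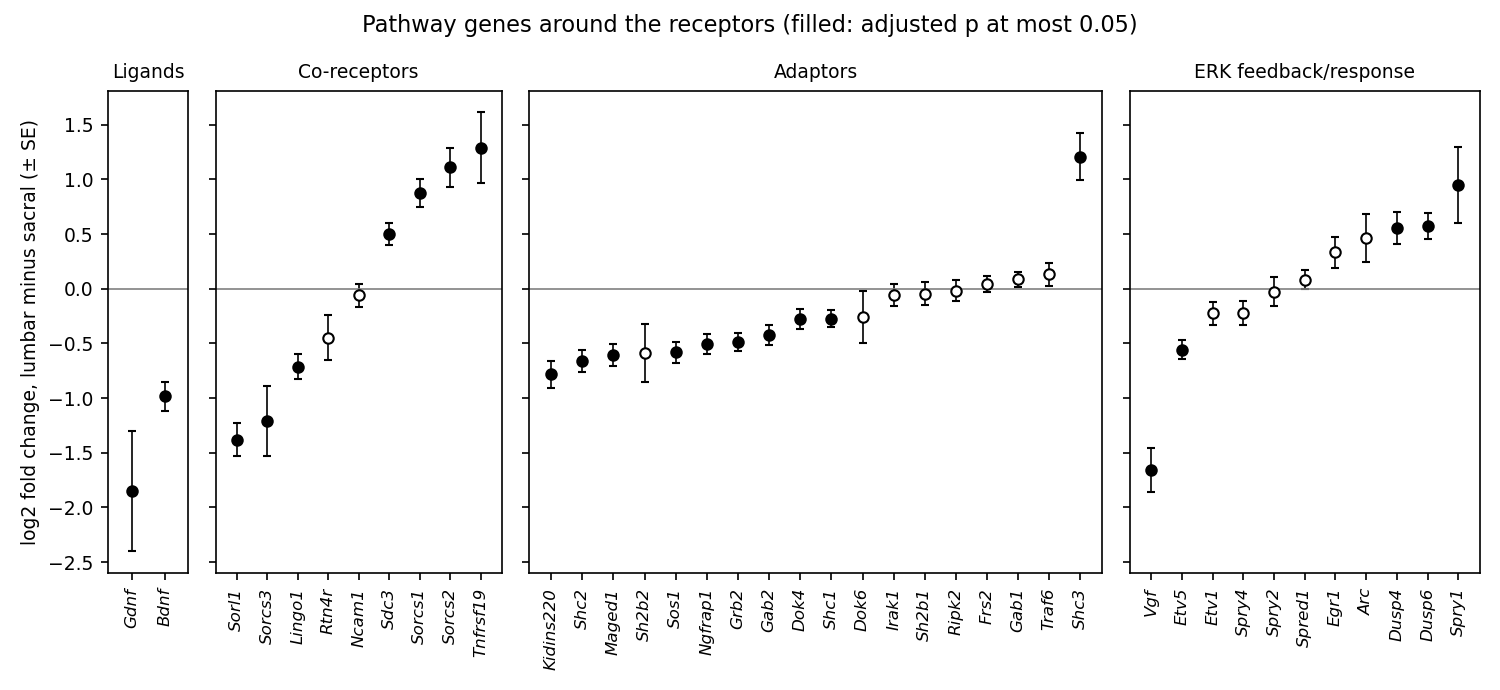
Lumbar minus sacral log2 fold change (bars are SE) of tested genes from 4 pathway lists, in order of size within each list, filled where the adjusted p is at most 0.05. Bdnf and Gdnf lie below 0, co-receptors spread to both sides, 9 of 18 adaptors are filled below 0 and Vgf is the lowest of the ERK pathway genes.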

How the data were processed

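The authors sorted cells, amplified RNA (Ovation RNA-Seq System v2), aligned reads to mm9 with Subread, retained those mapping uniquely, counted these per Ensembl gene and applied TMM and voom; the deposited values are log2 RPKM. Each library has the same median (0.93), a step the methods do not describe. No pseudocount was added, and 319449 cells are empty. The 37620 rows were matched to the mm9 annotation by identifier. Strand was not stated to be used in counting.

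Genes with a mean above -1 in at least 1 group (at least 3 values) entered a test on the deposited log2 values in R 4.3.3, using limma 3.58.1 (with statmod 1.5.0): 4 group means, donor as random block, mean-variance trend, Benjamini-Hochberg over all genes, adjusted p of at most 0.05. Donors pair the libraries by the animal numbers of the labels; same-donor deviations correlated at 0.21 (0.05 to 0.34). Separate dissociations are not documented beyond these numbers, so p-values measure the spread between these libraries. Whole reads were worked back from the values (98.1% of 430293 whole within 0.01 of a read) for depth, TMM and voom; the fit was tested on simulated data. Ratios used exact sign-flip tests, correlations 100000 permutations. Python 3.11.15, pandas 2.3.3, numpy 2.4.6, scipy 1.17.1 and matplotlib 3.10.9 were used.

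Alternatives were other filters, pseudocounts of 1 and 0.1, other scalings, voom, no trend, array weights, other donor models, each donor left out, each sex alone, an adjusted p of 0.01 and a glial covariate; scaling to total reads, centring on neuron markers and voom for the sexes were chosen after seeing the data. The named genes were the 9 receptors, the 3 called genes with the largest change in each pathway list, and the 2 most alike genes of each receptor; some genes that this rule or the lists cover are not reported here. Members and lists were chosen with earlier results of these data known. Promoters come from RefSeq GRCm38.p6 and were not moved between builds.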

Additional observations from a re-analysis of the deposited data

How the results depend on the processing

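The count of 8 receptors called between the levels was 0 with the glial marker mean as a covariate, a fit in which 130 of 16304 genes passed. There Ntrk3 (0.19) and Gfra3 (0.06) changed sign, and the cause was not tested. The covariate itself differed between the levels, and the median SE over all genes was 0.23 in that fit against 0.13 as deposited. With no replicate block, or donor as fixed effect, the same 8 passed (6577 and 7151 genes over all, against 7436). Centring on the neuron markers subtracts a single value from all genes of a library, so it shifts the level differences of all genes alike. The median over all genes went from -0.11 to 0.46, and with that shift Ntrk3 (0.30) and Gfra2 (0.22) changed sign. With array quality weights, 1 receptor (Sort1) was called between the sexes over both levels. With TMM scaling and quantile normalization, the higher-in-lumbar counts were 4 and 3 for adaptors (against 1) and 5 and 5 for ERK pathway genes (against 3), and endothelial and mural markers higher in sacral were 0 and 0 (against 1); TMM gave 1 peptidergic marker higher in lumbar (against 0) and quantile normalization 1 nonpeptidergic marker higher in sacral (against 2). The Gfra1 to Ret ratio passed on the log2(RPKM + 1) scale (0.33). Leaving out 1 donor at a time gave 0.19 to 0.32 for this ratio, 0.20 to 0.29 for Gfra3 to Ret and 0.25 to 0.44 for Gfra2 to Gfra3. The other 5 ratios passed in each such fit, and so did the 8 receptors, for which no donor decided a call. The receptors rest on at least 208 reads in each library, whereas 5 ligands had at most 19 reads in any library and were not tested.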
